A study of Mus musculus with 7 samples.

Results

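The mitochondrial ribosomal proteins were taken as the genes whose symbol begins with Mrpl or Mrps followed by a number, and 74 of the 18938 genes named on the array met that rule. Of these, 46 were Mrpl genes, named for the large subunit, and 28 were Mrps genes, named for the small subunit. They were measured in prostates of Nkx3.1-/- mice, which lack the homeobox transcription factor Nkx3.1, after 13 weeks of the antioxidant N-acetylcysteine (NAC, 5 mM in the drinking water) or of vehicle, which was plain water. All mice were of the strain labelled recombinant inbred B6/129, were 16 weeks old and were homozygous null for Nkx3.1, and the study's methods add that BrdU was injected before tissue was collected. There were 3 vehicle arrays (replicates 1, 2 and 4) and 4 NAC arrays (replicates 1 to 4), with 1 mouse per array. The tissue is labelled as whole prostate, whereas the extraction protocol names the anterior prostate. Littermates were divided between NAC cages and vehicle cages, so cage and treatment cannot be told apart. The comparison asked how the antioxidant changed gene expression in the Nkx3.1-/- prostate.

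Mitochondria translate the few proteins that their own genome encodes, all of them subunits of oxidative phosphorylation, on a ribosome of their own. Its RNAs are encoded in mitochondrial DNA, whereas all of its proteins are encoded in the nucleus, made in the cytosol and imported. Some of these proteins descend from bacterial ribosomal proteins and others are found only in mitochondria. Prostate epithelium is a secretory tissue known for an unusual citrate metabolism in its mitochondria.

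NAC left the messages of the mitochondrial ribosome close to their vehicle levels. The log2 difference (NAC minus vehicle) of the 74 genes ran from -0.21 to 0.11, that is from 0.866-fold to 1.08-fold, and its median was -0.02. Of the 74 genes, 24 were higher and 50 were lower with NAC, none of them past the threshold. By limma, 0 of the 74 genes had an adjusted p under 0.05, against 0% (0 of 18938) of all genes. At an unadjusted p under 0.05, Mrpl45 was lower, against 2.53% of all genes, and no mitochondrial ribosomal protein was higher, against 1.89%. The 95% confidence interval of the difference lay within 1.25-fold in either direction for 68 of the 74 genes (91.9%) and within 1.5-fold for all 74, against 81.6% and 96.9% of all genes. The 6 genes whose interval reached past 1.25-fold were Mrpl22, Mrpl27, Mrpl42, Mrpl45, Mrps18a and Mrps33.

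**Figure D1:**
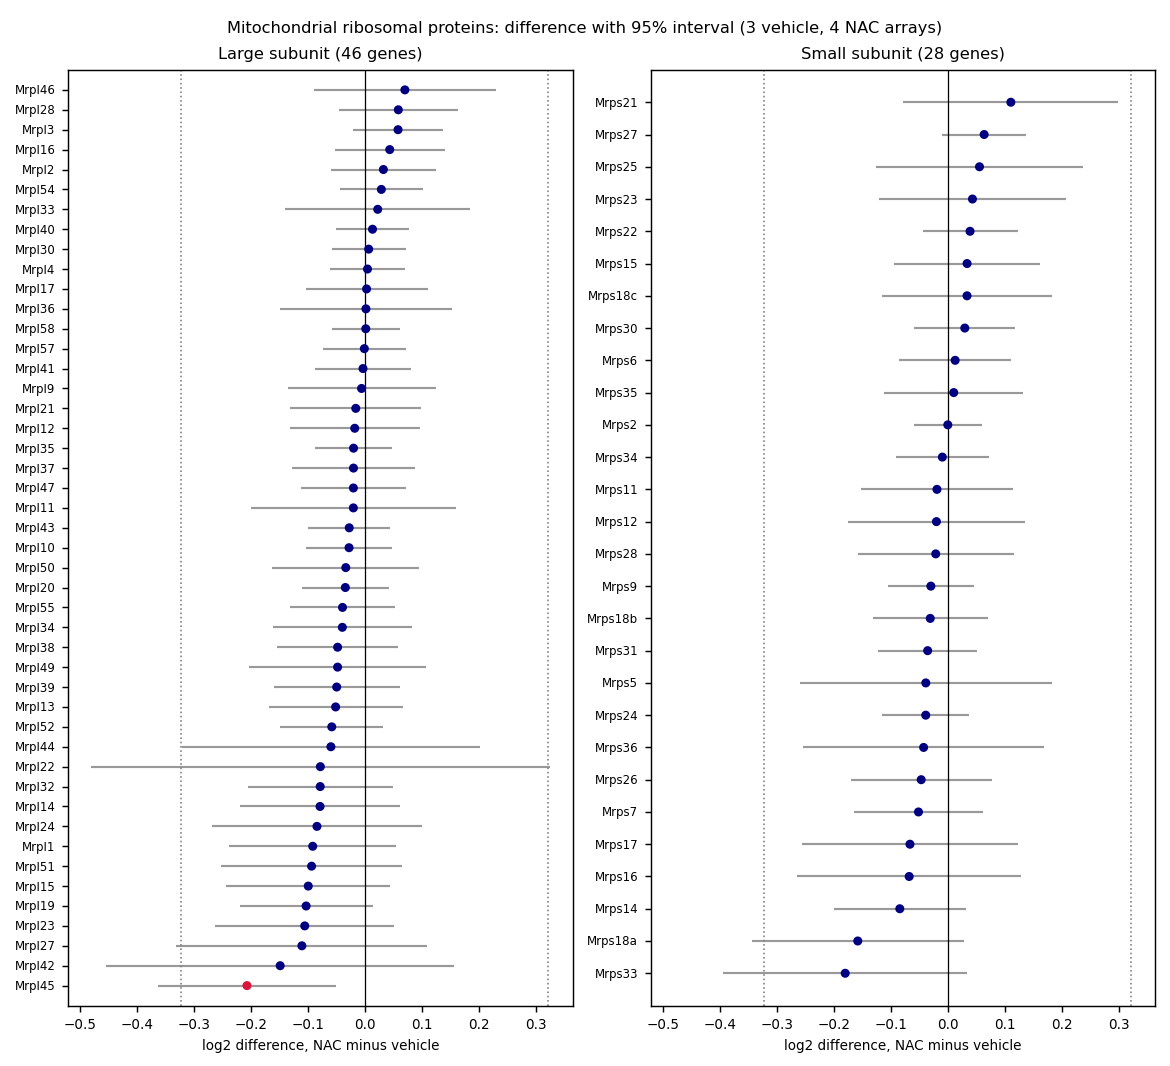
Log2 difference (NAC minus vehicle) of each mitochondrial ribosomal protein gene on the horizontal axis, with its 95% interval as a grey line, for 46 large-subunit and 28 small-subunit genes. Dotted lines mark 1.25-fold in either direction. Mrpl45, in red, is the 1 gene of 74 whose interval (-0.36 to -0.05) excludes 0.

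The values come from RNA of whole tissue, so fewer cells of a type and less RNA per cell cannot be told apart. The epithelial genes Epcam, Krt8 and Krt18 were at least 11.62, 11.96 and 12.56 on every array. Cdh1 and Krt19 were at least 11.29 and 11.93, while Krt5, Krt14 and Trp63 were at least 8.37, 7.51 and 8.50. The mean deviation of these 8 markers ran from -0.07 (NAC replicate 4) to 0.14 (NAC replicate 1). Whether the share of epithelium differed between arrays was not tested. The array of NAC replicate 3 stood apart, with 8 of 8 lung markers highest there and a mean deviation of 1.76 log2 units for them, against -0.33 to -0.24 on the other arrays. The surfactant gene Sftpc was 10.51 on that array and at most 5.26 on the others. The 7 adipocyte and 10 skeletal muscle markers were also highest there, with mean deviations of 1.25 and 0.62. Without that array 29 of the 74 genes were higher and 45 lower, and the median was -0.01. Seminal vesicle markers were lower with NAC in 7 of 7 genes, with a mean deviation from -1.27 (NAC replicate 1) to 0.76 (NAC replicate 4). On NAC replicate 4 their median deviation was 0.08, and 3 of the 7 were highest there. The part of these markers in the results was not tested.

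Some of the regions in front of these genes held features that the choice of genes had not used. RefSeq promoters of build GRCm38.p6, running from 250 bases before to 50 bases after the start, were available here for 65 of the 74 genes. The ETS core CCGGAAG, a motif of the family to which GABP belongs, was present on either strand in 22 of the 65 promoters (33.8%), against 12.6% of the promoters of 14877 measured genes. The site AAGATGGCG, bound by YY1, was in 8 (12.3%), against 2.09%. The NRF1 motif GCGCATGCG was in 7 (10.8%), 6 of them of the large subunit, against 2.71%. With any base at the sixth position, GCGCANGCG, a form that contains the former and was chosen after the data were seen, it was in 16 (24.6%), against 9.85%. The median GC content was 58% for these promoters and 57.7% for all. These shares are descriptions of sequence, without a test, and a match is not evidence of binding. No share was taken for genes of similar level or of other families, so whether the features are particular to these genes was not tested.

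The promoters of Mrpl45 and Mrps18a show what such matches look like. Differences of these genes between the groups were among the lowest of the Mrpl and of the Mrps genes, although Mrps18a sits in the large subunit. Each promoter is printed on the plus strand. The letters GCGCANGCG, CCGGAAG and AAGATGGCG are in capitals where they occur on either strand. Only the 250 bases before the start are shown, so matches that reach the 50 bases after it are counted above but are not printed. The promoter of Mrpl45 holds no CCGGAAG, AAGATGGCG or GCGCATGCG. Mrpl45 (chr11:97315466-97315715) holds GCGCANGCG, the form chosen after the data were seen, at 2 of its 3 places in the stretch shown. Mrps18a (chr17:46110754-46111003) holds its 1 CCGGAAG there, while its 1 AAGATGGCG lies outside. The annotated span of Mrpl45 begins farther upstream, at base 97314923, so the stretch shown precedes another of its starts.
Mrpl45: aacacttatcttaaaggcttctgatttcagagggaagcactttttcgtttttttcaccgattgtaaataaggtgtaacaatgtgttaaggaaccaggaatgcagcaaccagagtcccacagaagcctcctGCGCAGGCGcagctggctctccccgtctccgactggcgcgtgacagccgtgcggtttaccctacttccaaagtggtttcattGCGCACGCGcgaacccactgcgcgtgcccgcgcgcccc
Mrps18a: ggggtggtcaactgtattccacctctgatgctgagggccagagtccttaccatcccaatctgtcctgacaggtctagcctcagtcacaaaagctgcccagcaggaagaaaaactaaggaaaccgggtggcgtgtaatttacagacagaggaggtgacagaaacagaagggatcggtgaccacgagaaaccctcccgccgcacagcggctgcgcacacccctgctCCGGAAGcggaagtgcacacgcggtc

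Many of the genes stood head to head with a neighbour, the starts on opposite strands within 1000 bases. This held for 21 of the 65 genes (32.3%), against 1182 of 14877 measured genes (7.95%). Genes of similar level were not counted apart. The shared stretches are shown for the pair of 2 mitochondrial ribosomal proteins and for the pair of a ribosomal protein with a mitochondrial aminoacyl-tRNA synthetase, on the plus strand. Mrpl46 and Mrps11, proteins of the large and the small subunit, start 41 bases apart (chr7:78783090-78783130). Mrps12, a protein of the decoding site, and Sars2, the mitochondrial seryl-tRNA synthetase, start 146 bases apart (chr7:28741822-28741967). None of the letters searched occurs within either stretch.
Mrpl46 to Mrps11: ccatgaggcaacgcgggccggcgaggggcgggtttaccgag
Mrps12 to Sars2: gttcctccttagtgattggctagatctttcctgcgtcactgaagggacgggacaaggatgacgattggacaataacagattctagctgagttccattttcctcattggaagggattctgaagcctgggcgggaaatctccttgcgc

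The differences of the partners ran from -0.23 to 0.17. Mrpl46 was 0.07 and Mrps11 -0.02 (log2 difference), and Mrps12 was -0.02 and Sars2 0.03. Among the other partners, Mitd1, opposite Mrpl30, was -0.18 and Gga3, opposite Mrps7, was 0.15, both at an unadjusted p under 0.05 (all genes, 2.53% lower and 1.89% higher), while Mrpl30 was 0.01 and Mrps7 was -0.05. The remaining partners were not past that level. The ends of their range were Zfp661, a zinc finger gene opposite Mrps5 (-0.23 and -0.04), and Ska3, a gene of the spindle and kinetochore opposite Mrpl57 (0.17 and -0.00). Others were Psma2, a proteasome subunit opposite Mrpl32 (0.03 and -0.08), and Fau, which encodes a cytosolic ribosomal protein, opposite Mrpl49 (-0.04 and -0.05).

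The large subunit had 33 of 46 genes lower with NAC, and its median log2 difference was -0.03. The small subunit had 17 of 28 genes lower, and its median was -0.02. Over all 18938 genes, 9500 were lower (50.2%) and the median was -0.00. Genes of similar level gave another background. Among the 4380 genes between the quartiles of the ribosomal proteins' mean levels (7.92 and 9.50), 68.0% were lower and the median was -0.03, beside 67.6% and -0.02 for the ribosomal proteins. The median of the large subunit was -0.00 after the deposited values were quantile normalized once more, and that of the small subunit turned to 0.00 on the positive side. The 75th percentile of all genes ran from 8.81 to 8.86 on the vehicle arrays and from 8.78 to 8.83 on the NAC arrays.

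The mean deviation of the 74 genes from their own means was highest on vehicle replicate 1 (0.04) and lowest on NAC replicate 4 (-0.04) and NAC replicate 3 (-0.03), and it lay from -0.00 to 0.01 on the other 4 arrays. Of the 74 genes, 22 were highest on vehicle replicate 1, 19 were lowest on NAC replicate 4 and 17 on NAC replicate 3 (29.7%, 25.7% and 23.0%). Among the 4380 genes of similar level the shares were 30.3%, 28.2% and 21.4%, and the mean deviations on these arrays were 0.04, -0.04 and -0.03, so the ribosomal proteins lay close to their background. The subunits differed in which array was lowest. It was NAC replicate 4 for the large subunit (-0.05) and NAC replicate 3 for the small subunit (-0.04). Without vehicle replicate 1, 45 of 74 genes were lower, and without NAC replicate 4, 44 were.

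**Figure D2:**
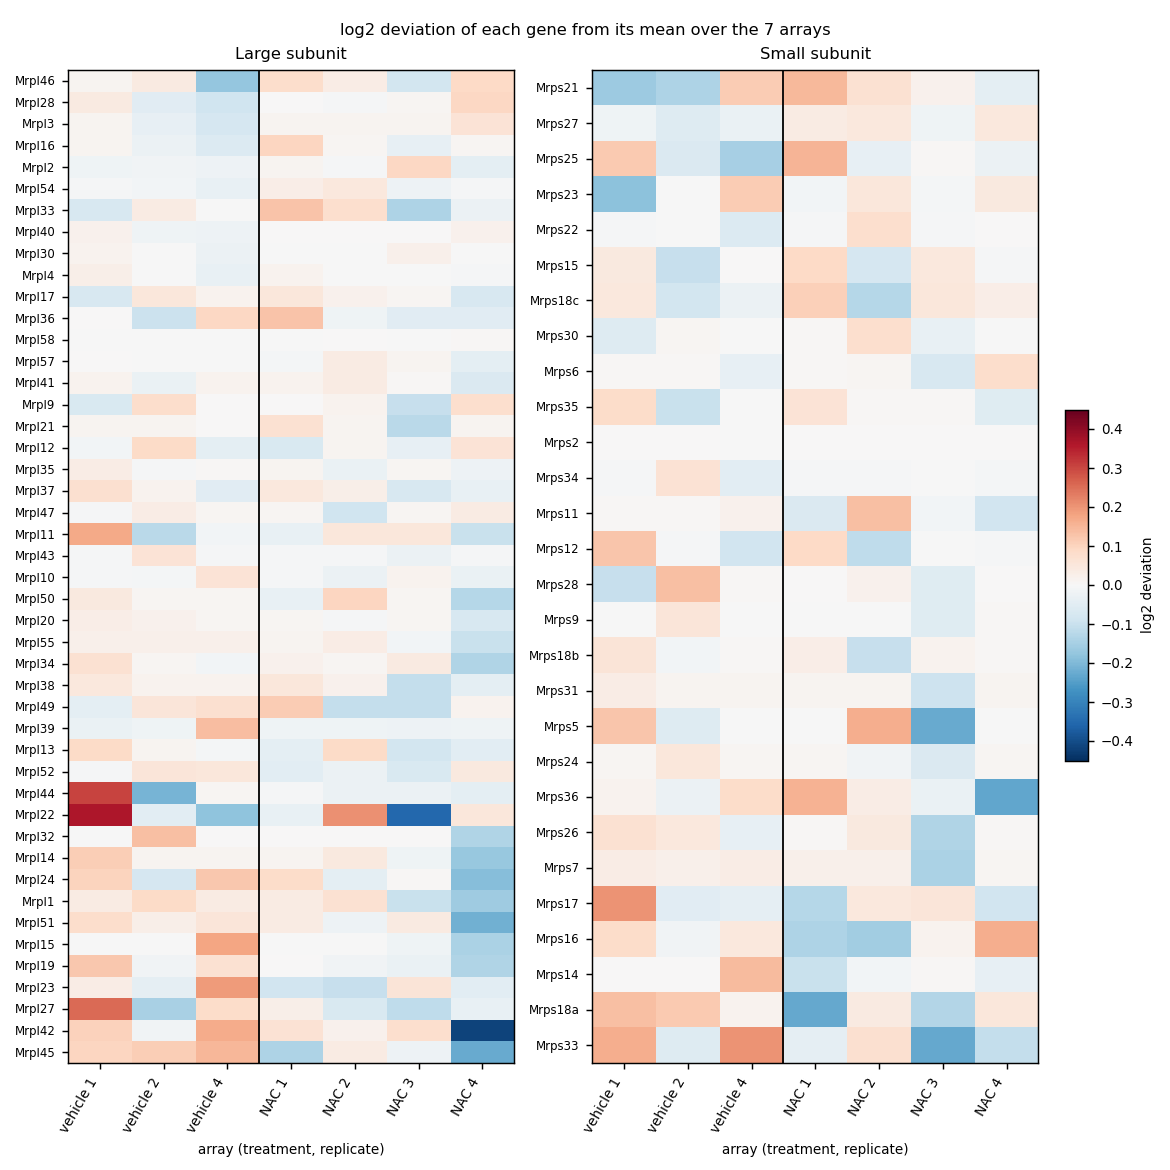
Log2 deviation of each gene (rows, ordered by the NAC minus vehicle difference) from its own mean, on each array (columns, vehicle left and NAC right of the black line). Blue cells gather under NAC 4 in the large subunit, where 17 of 46 genes were lowest, and no column is of 1 colour.

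Mrpl45 was the member with the lowest difference and the only one past an unadjusted p of 0.05. Its protein tethers the mitochondrial ribosome to the inner membrane beside the exit tunnel, where new subunits of the respiratory chain are inserted. It measured 8.35, 8.37 and 8.40 on the vehicle arrays and 8.12, 8.29, 8.23 and 8.03 on the NAC arrays (log2). Every NAC array was below every vehicle array, and NAC replicate 4 was the lowest. Lower values without overlap were seen in 2.18% of all genes and in 158 of the 4380 genes of similar level. Of those 4380 genes, 181 were lower at an unadjusted limma p under 0.05. The log2 difference was -0.21 (SE 0.07), a fold of 0.866, with an unadjusted limma p of 0.0169 and an adjusted p of 0.827. With any 1 array left out the difference ran from -0.25 to -0.16, and without overlap its sign could not change. Without vehicle replicate 4 the unadjusted limma p of Mrpl45 was 0.057.

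Other proteins around the exit tunnel gave smaller differences. Of the 6 measured, Mrpl45 included, 5 were lower and 1 was higher, with a median of -0.08, none past an unadjusted p of 0.05 other than Mrpl45. Among the genes of similar level 68.0% were lower (median -0.03). Mrpl23, a protein at the rim of the tunnel, was 9.21, 9.13 and 9.37 with vehicle and 9.09, 9.07, 9.23 and 9.13 with NAC. The groups overlapped, and its difference was -0.11 (SE 0.07, adjusted p = 0.827). The probe set of Mrpl23 is numbered among those of another chromosome, as described at the end. Mrpl22, a protein that lines the tunnel, varied most of all 74 genes, at 7.67, 7.26 and 7.13 with vehicle and 7.28, 7.52, 6.96 and 7.36 with NAC. Vehicle replicate 1 was its highest and NAC replicate 3 its lowest array. The difference of -0.08 was smaller than its SE of 0.17, and it turned to 0.08 without vehicle replicate 1 and to 0.03 without NAC replicate 3. Mrpl24 was -0.08, Mrpl47 -0.02 and Mrpl17 0.00.

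The stalk recruits translation factors to the large subunit, and 4 of its 5 listed proteins were measured. Mrpl10 (-0.03), Mrpl11 (-0.02) and Mrpl12 (-0.02) were lower, each turning positive after a second quantile normalization, and Mrpl54 was higher (0.03). Mrpl12, which also binds the mitochondrial RNA polymerase, was 9.54, 9.64 and 9.51 with vehicle and 9.48, 9.56, 9.51 and 9.61 with NAC. The groups overlapped over nearly their whole range. Its interval ran from -0.13 to 0.10, so a change larger than 1.25-fold lay outside it.

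In the central protuberance, the crown of the large subunit, 3 of 5 measured proteins were higher and 2 lower. Mrpl46 was 8.29, 8.31 and 8.10 with vehicle and 8.35, 8.31, 8.19 and 8.36 with NAC, with the highest difference of the large subunit (0.07, SE 0.07). Mrpl27 was 8.15, 7.74 and 7.97 with vehicle and 7.92, 7.82, 7.77 and 7.86 with NAC. Its vehicle arrays reached above and below all of the NAC arrays, and its difference was -0.11 (SE 0.09, adjusted p = 0.833). Mrpl58, a peptidyl-tRNA hydrolase that has become a structural protein of the ribosome, was 9.19 on all 7 arrays. Its difference was 0.00, with an interval from -0.06 to 0.06.

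Mrpl3, a large-subunit protein with a bacterial counterpart, was the 1 mitochondrial ribosomal protein whose NAC arrays all lay above the vehicle arrays, as 1.29% of all genes did. It was 9.41, 9.36 and 9.32 with vehicle and 9.41, 9.41, 9.41 and 9.45 with NAC. The gap between the groups was 0.0004 log2 units, so vehicle replicate 1 and 3 NAC arrays were the same at the printed precision. The difference was 0.06 (SE 0.03, adjusted p = 0.827). Mrpl28 was likewise 0.06 and Mrpl16 0.04, with overlapping groups. The ribosomal proteins without overlap, 2 of 74 here, changed in number when arrays chosen after the data were seen were left out. Without vehicle replicate 1 there were 5 higher and 3 lower, against 4.85% and 4.43% of all genes. Without NAC replicate 3 there were 2 higher and 3 lower, against 2.17% and 3.16%, and without NAC replicate 4 there were 2 higher and 2 lower, against 1.89% and 3%.

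The differences of Mrpl42 and Mrpl44 rested on single arrays. Mrpl42, a mitochondria-specific protein, was 8.08, 7.96 and 8.14 with vehicle and 8.04, 7.998, 8.05 and 7.56 with NAC. The value of NAC replicate 4 stood below all others. Its difference was -0.15 (SE 0.13) with that array and -0.03 without it. Mrpl44, which has the fold of ribonuclease III, was 7.28, 6.77 and 6.98 with vehicle and 6.97, 6.95, 6.95 and 6.93 with NAC. The NAC arrays lay inside the spread of the vehicle arrays, and the difference of -0.06 turned to 0.08 without vehicle replicate 1.

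**Figure D3:**
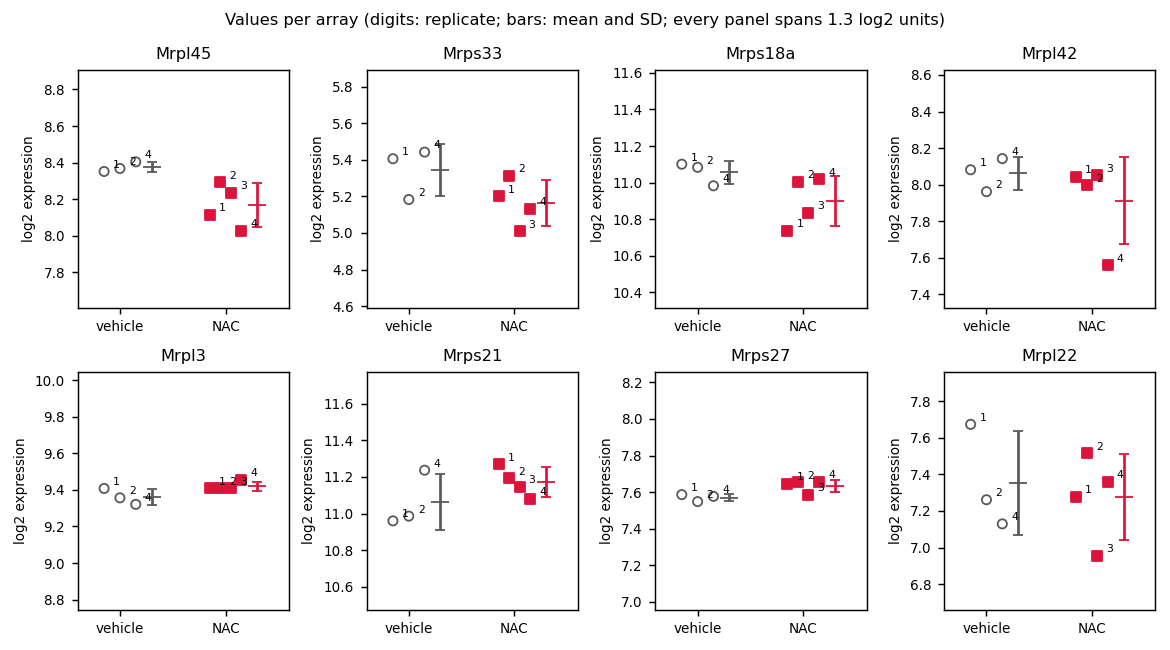
Log2 expression per array (digits give the replicate) for 8 genes in vehicle (open circles) and NAC (red squares), with the mean and SD of each group beside the points. Mrpl45 has no overlap, Mrpl42 has 1 low NAC array (7.56), and Mrpl22 spreads from 6.96 to 7.67 across both groups.

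Mrps33 was the lowest of the small subunit, at 5.41, 5.18 and 5.44 with vehicle and 5.20, 5.31, 5.01 and 5.13 with NAC. It is a mitochondria-specific protein, and its mean was the 1 of the 74 below the 40th percentile of all genes (6.59). The groups overlapped, and the difference was -0.18 (SE 0.09, adjusted p = 0.827). Without vehicle replicate 2, its lowest vehicle array, it was -0.26 and past an unadjusted p of 0.05 (all genes, 2.96% lower). The same held without NAC replicate 2, its highest NAC array (all genes, 4.24% lower). Leaving out an array that opposes a difference by itself favours a smaller p.

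Mrps18a followed. It is 1 of the Mrps18 paralogs and, despite its name, sits in the large subunit, as does Mrps30. It was 11.10, 11.08 and 10.98 with vehicle and 10.74, 11.01, 10.83 and 11.02 with NAC. NAC replicates 1 and 3 were low, while NAC replicates 2 and 4 lay above vehicle replicate 4. The difference was -0.16 (SE 0.08, adjusted p = 0.827), whereas the paralogs Mrps18b and Mrps18c, which stay in the small subunit, were -0.03 and 0.03. Without NAC replicate 4, its highest NAC array, Mrps18a was -0.20 and past an unadjusted p of 0.05 (all genes, 1.78% lower). Mrps30 was 0.03.

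At the other end of the small subunit, Mrps21, which has a bacterial counterpart, was 10.96, 10.99 and 11.24 with vehicle and 11.27, 11.19, 11.15 and 11.08 with NAC. Vehicle replicate 4 lay among the NAC arrays, and the difference was 0.11 (SE 0.08, adjusted p = 0.827), the highest of the 74 genes. Without that array, its highest vehicle array, it was 0.20 and past an unadjusted p of 0.05 (all genes, 1.76% higher). Leaving out an array that opposes a difference favours such a result. Mrps27, a pentatricopeptide repeat protein that binds RNA, was 7.59, 7.55 and 7.58 with vehicle and 7.64, 7.65, 7.59 and 7.65 with NAC. NAC replicate 3 alone lay among the vehicle arrays. Its difference was 0.06 (SE 0.03, adjusted p = 0.827). Without NAC replicate 3, its lowest NAC array, it was past an unadjusted p of 0.05 (all genes, 1.51% higher).

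Genes of known role in the small subunit showed little. Mrps12, at the decoding site, was 7.83, 7.70 and 7.62 with vehicle and 7.80, 7.59, 7.70 and 7.70 with NAC. Its groups overlapped, and the difference of -0.02 turned to 0.00 on the positive side after a second quantile normalization. Mrps16, which has a bacterial counterpart, was 9.26, 9.16 and 9.23 with vehicle and 9.04, 9.02, 9.20 and 9.34 with NAC. Its NAC arrays reached below and above all of the vehicle arrays, with a difference of -0.07 (SE 0.08). Mrps22, a mitochondria-specific protein of the small subunit, was 0.04. Mrps5, which has a bacterial counterpart, was -0.04 and ranged from 9.48 (NAC replicate 3) to 9.87 (NAC replicate 2). Mrps14, with a bacterial counterpart, was -0.08, and the mitochondria-specific Mrps25 and Mrps23 were 0.06 and 0.04. Mrps36, now placed with the oxoglutarate dehydrogenase complex, was -0.04, and its probe set is numbered among those of another chromosome.

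The proteins can also be split by origin, and the difference between these groups was not tested. In the large subunit, 20 of 29 with a counterpart were lower (median -0.02), as were 13 of 17 specific ones (median -0.03). In the small subunit, 10 of 15 with a counterpart were lower (median -0.02), as were 5 of 10 specific ones (median 0.00).

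The messages of the mitochondrial ribosome also varied little from mouse to mouse. The median SD over the 7 arrays was 0.07 for the 74 genes and 0.09 for all genes, and 51 of the 74 lay below the median of all genes. Cytosolic ribosomal proteins had a median SD of 0.12 and the nuclear genes of oxidative phosphorylation subunits 0.07. Equal values on several arrays, which the summarization of probes can produce, occurred on at least 3 arrays in 24 of the 74 genes (32.4%), in 39.96% of all genes and in 24.1% of the genes of similar level. Their part in the SD was not tested.

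**Figure D4:**
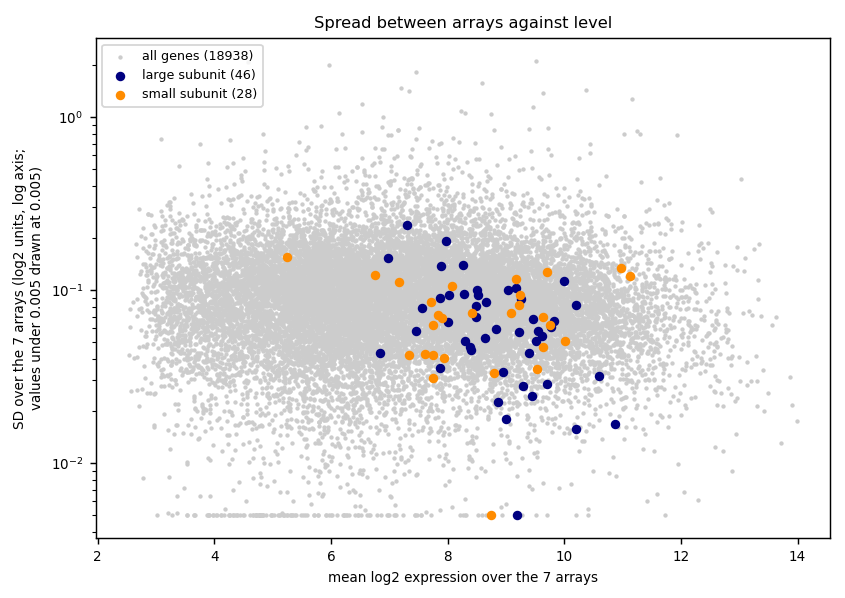
SD over the 7 arrays (log axis, log2 units) against mean log2 expression for all 18938 genes (grey), the large subunit (navy) and the small subunit (orange). Of the 74 ribosomal proteins, 51 lie below the median SD of all genes, with Mrpl22 the highest of them (0.24).

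The genes that build, regulate and use the ribosome were taken from lists, and 0 of them had an adjusted p under 0.05. The counts of lower genes in these lists stand beside 50.2% of all genes. Among the 4380 genes at the ribosomal proteins' level, 68.0% were lower (median -0.03). Among subunit proteins with other names, 2 of 4 were lower, with Gadd45gip1, of the large subunit, at -0.07, the pentatricopeptide repeat protein Ptcd3, of the small subunit, at -0.07 and Dap3, a GTP-binding protein of the small subunit, at 0.03. Among factors for assembly and rRNA modification, 21 of 26 were lower (median -0.04), none of them at an unadjusted p under 0.05. The rRNA methyltransferases Mrm2 and Trmt61b were 0.09 and -0.07, and Mterf4, which guides an assembly methyltransferase, was -0.06. Among aminoacyl-tRNA synthetases of mitochondria, 13 of 19 were lower (median -0.01), with Mars2 at -0.18, Ears2 at -0.09 and Fars2 at -0.06.

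Translation factors and genes of mitochondrial DNA held 3 genes of 25 at an unadjusted p under 0.05, all lower. The other related lists held no gene at that level. Of all genes 2.53% were lower at that level, as were 181 of the 4380 genes of similar level. Of the 15 translation factors, 12 were lower (median -0.06), and 2 were at that level. Taco1, an activator of the translation of the mitochondrial Cox1 message, was 8.09, 7.89 and 7.995 with vehicle and 7.80, 7.87, 7.79 and 7.86 with NAC. All NAC arrays lay below all vehicle arrays, as in 2.18% of all genes. The difference was -0.16 (SE 0.05, adjusted p = 0.827). Mtif2, the initiation factor that places the first tRNA, was 8.25, 7.99 and 8.13 with vehicle and 7.997, 7.90, 7.96 and 7.81 with NAC. NAC replicate 1 overlapped vehicle replicate 2, and the difference was -0.21 (SE 0.07, adjusted p = 0.827). The release factor Mtrf1l was -0.16.

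Of the 10 genes for maintenance and transcription of mitochondrial DNA, 8 were lower (median -0.07). Tfam, which packs mitochondrial DNA and starts its transcription, was 7.41, 7.49 and 7.58 with vehicle and 7.18, 7.38, 7.27 and 7.07 with NAC. The groups did not overlap, and lower values without overlap were seen in 2.18% of all genes. NAC replicate 4 was the lowest array, as it was for 17.3% of all genes and 28.2% of those at the ribosomal proteins' level. The difference was -0.26 (SE 0.08, adjusted p = 0.827), or 0.832-fold, and without vehicle replicate 4 its unadjusted p was 0.053. The helicase Twnk was -0.22 and the polymerase subunit Polg2 -0.08. Among 10 regulators of mitochondrial biogenesis, 7 were lower (median -0.02). Yy1 was 10.76, 10.74 and 10.75 with vehicle and 10.71, 10.66, 10.69 and 10.71 with NAC (difference -0.06, SE 0.03). It was also lower without overlap, as were 2.18% of all genes. The coactivator Ppargc1b was -0.19 and the ETS factor Gabpa -0.08.

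**Figure D5:**
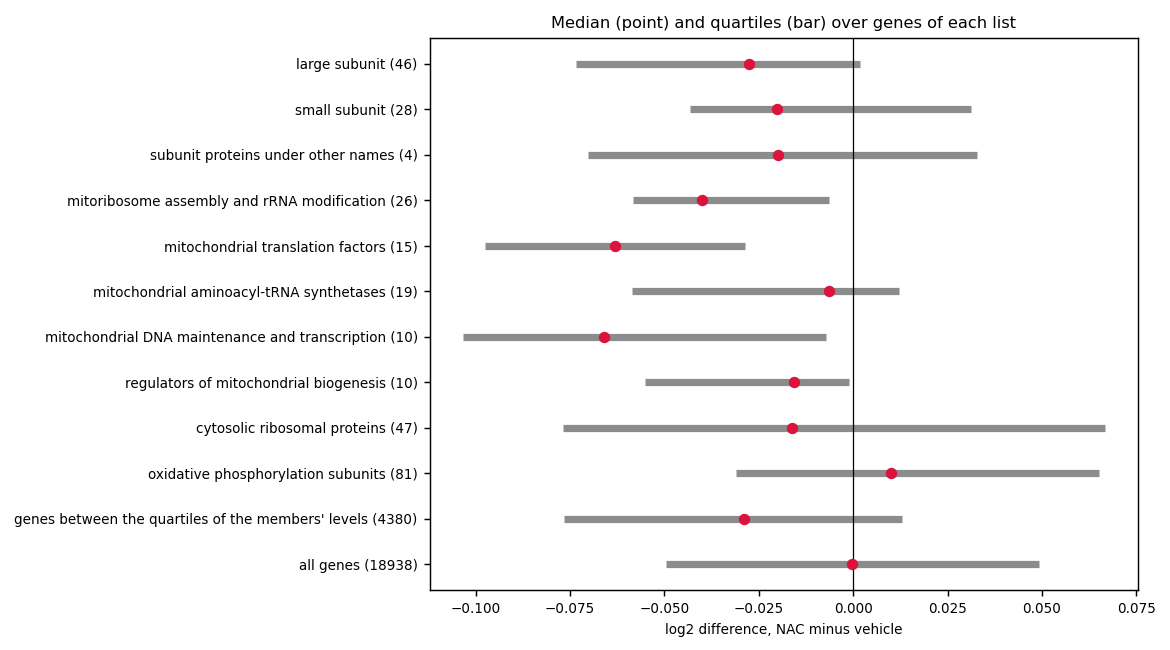
Median (red point) and quartiles (grey line) of the log2 difference (NAC minus vehicle) over the genes of each list, with the number of genes in brackets. The large subunit (-0.03) and the small subunit (-0.02) lie beside the genes of similar level (-0.03), and oxidative phosphorylation subunits lie at 0.01.

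Beside the cytosolic ribosome and the respiratory chain, the mitochondrial ribosome had the narrower range. The lists compared, taken by symbol, also hold paralogs such as Rpl3l, Rpl10l, Cox6a2 and Cox8b. The part of such paralogs in the ranges was not tested. Cytosolic ribosomal proteins, of which 26 of 47 were lower (median -0.02), ran from -0.47 to 0.53, with 1 higher and 3 lower at an unadjusted p under 0.05, where all genes gave 1.89% and 2.53%. Nuclear genes of oxidative phosphorylation subunits, of which 32 of 81 were lower (median 0.01), ran from -0.36 to 0.21, with 4 higher and 2 lower against the same shares. The 95% interval lay within 1.25-fold for 57.4% of the cytosolic ribosomal proteins and 82.7% of the oxidative phosphorylation genes. No gene encoded in mitochondrial DNA, the templates of this ribosome, was among those analysed here.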

How the data were processed

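Gene expression in Nkx3.1-/- prostates was measured on Affymetrix whole-transcript mouse gene arrays, 1 mouse per array (3 vehicle, 4 NAC). RNA had been taken from a further vehicle mouse, but only these 7 arrays passed quality control. The deposited log2 values had been made by the authors with the RMA approach: intensities of perfect-match probes were brought to a common distribution over arrays, had background removed, and were combined into 1 value per probe set by median polish. In the submitters' notes the tools are affy, RMA and limma, with no version given.

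Of 20696 probe sets, 18950 named 1 gene, 678 several and 1068 none in the array's annotation. Those with 1 gene gave 18938 genes, of which 18910 matched GRCm38.p6 by Entrez identifier. Of 12 genes with several probe sets the one with the highest mean was used, which touched Mrpl47 alone among the ribosomal proteins. RefSeq holds 78 protein-coding Mrpl and Mrps genes. Mrpl18, Mrpl48, Mrps10 and Mrpl53 were not analysed, the last because its probe set also names Ccdc142. The genes and lists were chosen with earlier results of these data known. The oxidative phosphorylation list leaves out the Ndufaf assembly factors, which its written pattern would have taken.

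The NAC and vehicle values were fitted by limma 3.58.1 under R 4.3.3 with no covariates (eBayes statistics, two-sided), with Benjamini-Hochberg adjustment over all 18938 genes and a threshold of 0.05. The script was tested on simulated data. Lists are described by counts and medians, without a test. Genes named per subunit were those at an unadjusted p under 0.05, those without overlap, the 4 highest and 4 lowest differences, the 3 largest SDs, genes of known role fixed by name and, in related lists, the 3 smallest p. Other genes named are head-to-head partners, exit tunnel members and Mrps18 paralogs. The deposited values do not show which probe sets exceeded background. Precision is limited by there being 7 arrays. Alternatives were the variance model, array weights, scaling, a filter on dim genes, the probe set per gene, a replicate block, leaving out each array, the mean, and the subunits by structure.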

Additional observations from a re-analysis of the deposited data

Results flagged for a closer look

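Within the 4 NAC arrays, 1 array lay far from the other 3, relative to the range of the group, for 6 of 46 named genes, where chance gives about 1 in 20 groups. The named genes include those with extreme differences, and the same was seen in 16 of all 74 ribosomal proteins (21.6%), 20.3% of all genes and 14.5% of the genes of similar level. Equal values on several arrays, as in Mrpl3 and Mrps22, make the ratio of gap to range large. On NAC replicate 4, Mrpl3 was 9.45, Mrpl28 was 8.93, Mrpl42 was 7.56 and Ears2 was 7.70. On NAC replicate 3, Mrps27 was 7.59. On NAC replicate 2, Mrps22 was 8.02.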

How the results depend on the processing

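The number of genes past the adjusted threshold was 0 under the variance trend, array weights, both scalings, the filter on dim genes, both choices of probe set and the replicate block, and 0 to 1 with 1 array left out. The 1 gene was Crip1 without NAC replicate 4 (log2 difference -1.15, adjusted p = 0.0325). Of the 74 ribosomal proteins, 2 were at an unadjusted p under 0.05 with array weights (Mrpl45 and Mrps18a) and 1 to 4 with 1 array left out, against 1. The share of all genes at that level was 4.41%, 5.05% with array weights, 4.86% without vehicle replicate 2 and 3.15% to 6.64% over the arrays left out. Without vehicle replicate 2 there were 4 (Mrpl19, Mrpl27, Mrpl45 and Mrps33), without NAC replicate 4 there were 3 (Mrpl45, Mrpl52 and Mrps18a), without vehicle replicate 1 there were 2 (Mrpl3 and Mrpl45), without NAC replicate 2 there were 2 (Mrpl45 and Mrps33) and without NAC replicate 3 there were 2 (Mrpl45 and Mrps27). Without vehicle replicate 4, Mrps21 was past that level and Mrpl45 was not. The medians of -0.03 (large) and -0.02 (small) became -0.0044 and 0.0037 after a second quantile normalization, and ran from -0.04 to -0.02 and from -0.03 to -0.01 with 1 array left out. Array replicate numbers were not taken as pairs. The correlations of same-numbered deviations were 0.27, 0.23 and -0.03. They cannot decide whether the arrays are paired, because arrays of different numbers were not correlated. The replicate block leaves out NAC replicate 3 and has 1 array of each group per block. Its differences therefore equal those without that array, with medians of -0.02383 and -0.008694. With the block over 6 arrays, 1 ribosomal protein (Mrpl45) was at an unadjusted p under 0.05, and 0 of all genes were past the adjusted threshold. Over 46 named genes, 668 of 689 gene and setting pairs kept their sign and side of the threshold and 21 changed sign. Several settings, such as the variance trend and the filter on dim genes, leave each difference as it was. The lowest limma adjusted p of a named gene in any setting was 0.667, so none came near the threshold. The 668 is therefore no measure of robustness. Mrps12 was 0.0054 with array weights and 0.0034 after a second quantile normalization, which also gave 0.0017 for Mrpl10, 0.011 for Mrpl11 and 0.0088 for Mrpl12. The replicate block gave 0.029 for Mrpl22 and 0.032 for Mrps5. These are the same changes of sign as without NAC replicate 3, counted under both settings. With 1 array left out, the log2 difference ran from -0.191 to 0.0812 for Mrpl22, -0.182 to 0.0756 for Mrpl44, -0.0370 to 0.112 for Mrps23, -0.0980 to 0.0321 for Mrps5, -0.0675 to 0.0366 for Mrps12, -0.0864 to 0.0585 for Mrpl11, -0.0455 to 0.0207 for Mrpl12, -0.00344 to 0.131 for Mrps25 and -0.100 to 0.0296 for Mrps36. The cause was not tested.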

Other observations

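Probe sets of this array are numbered along the genome, so the neighbours of a probe set mostly share its chromosome. For 71 of the 74 ribosomal proteins, 9 or more neighbouring probe sets lay on the gene's own chromosome. For Mrpl23 it was 0 of 19 (most on chromosome 2 against its own chromosome 7), for Mrpl41 0 of 20 (most on 7 against 2) and for Mrps36 0 of 18 (most on 7 against 13). Whether these probe sets measure a copy elsewhere in the genome was not tested.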
